A study of Mus musculus with 8 samples.

Results

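Progenitor wells were the single-cell wells of the erythromyeloid progenitor (EMP) libraries in which transcripts of 7 blood genes stood out. They were chosen from measured values. In each EMP well with at least 5000 transcripts, the transcripts of set P (Fermt3, Plek, Lmo2, Rac2, Coro1a, Ptpn7, Runx1), of the endothelial set V (Plvap, Clec14a, Cldn5, Cdh5, Kdr, Ramp2) and of the endoderm set E (Apoa1, Apoa4, Apoc2, Rbp4, Ttr, Cldn7) were summed per 10000 transcripts and divided by the mean over all such wells. A well was a progenitor well where the P ratio was the highest of the 3 and at least 1.5. This held for 141 of 505 EMP wells with at least 5000 transcripts, out of 768 EMP wells and 1536 wells in the 8 libraries of the series. EMP libraries 1 to 4 gave 29, 36, 39 and 37 of them, or 28.2% ± 4.81 of the wells kept per library (SD, n = 4).

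All wells held cells of wild type C57BL/6N mouse embryos at embryonic day 9.5, taken from the extraembryonic yolk sac, in 8 libraries of equal size that carry the same batch label. Of these, 4 libraries are labelled as EMP cells and 4 as A1 and A2 cells, names used for early stages between EMPs and yolk sac macrophages. The labels of the EMP libraries say that they were run alongside the others and were not part of the publication. Antibodies to CD45 and CD11b were used, the CD45+ cells were sorted into wells, per the labels' protocols, and transcripts were counted by mCEL-Seq2, which tags the 3' end of each transcript with a well barcode and a molecular identifier. The labels give no gate per well and do not say whether libraries came from separate litters, so p-values measure the spread between libraries, which may be technical. The progenitor wells were set against 57 endothelial wells of the same libraries (V ratio highest and at least 1.5), against all 364 other EMP wells, among them 171 endoderm wells and 136 wells of no set, and against 148 wells of the A1/A2 libraries chosen by the same rule and the same EMP means (46, 32, 30 and 40 in libraries 1 to 4), called A1/A2 P wells here.

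Erythromyeloid progenitors arise in the yolk sac from hemogenic endothelium, endothelial cells that switch on Runx1, round up and enter the blood. They carry the stem cell factor receptor Kit and the integrin CD41 and give rise to red cells, megakaryocytes, mast cells, granulocytes and the macrophages that settle in fetal tissues. Gata1 drives the erythroid and megakaryocyte branch and Spi1 (PU.1) the myeloid branch.

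The values that chose the wells are given as a description only. The P ratio of progenitor wells had a median of 2.58 (1.504 to 5.69), their V ratio one of 0.422 and their E ratio one of 0.104. The 3 wells just inside the threshold had P ratios of 1.504, 1.510 and 1.510, and the 3 just outside, with P still the highest set, 1.485, 1.470 and 1.442. The threshold lies in a continuous range, with 28 progenitor wells between 1.5 and 2 and 35 wells where P was highest but under 1.5. In 13 other wells P was at least 1.5 with V or E higher, and 12 progenitor wells had a V ratio of at least 1.5. All 7 P genes were found in 92 progenitor wells and 6 of them in 36.

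Of the marker genes that the rule did not use, Kit and Adgrg1, an adhesion receptor of blood stem and progenitor cells, were both found in 128 of 141 progenitor wells, and neither was found in 2. The transcript of the stained antigen CD45, Ptprc, was found in 45 of 141 progenitor wells, although the labels describe CD45+ cells, and in 139 of 148 A1/A2 P wells. Wells of a library are not replicates, so transcripts were summed per library and class. These sums held 818643 to 1239541 transcripts for progenitor wells, 166209 to 383755 for endothelial wells, 2558662 to 4507946 for all other EMP wells and 1287532 to 2067068 for A1/A2 P wells. A progenitor well held a median of 25852 transcripts (5915 to 106785), against 14443 in endothelial, 27961 in all other and 41059 in A1/A2 P wells. All well barcodes occur in every library, since each library uses the same set. Levels are CPM, counts scaled to 1000000 per sum with TMM factors, scaled anew in each comparison, so the same wells have slightly different CPM beside different partners. In these sums fewer cells of a type and less RNA per cell cannot be told apart.

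Promoter windows are shown of 3 genes whose transcripts were higher in progenitor wells than in other EMP wells. The windows were picked because they hold AGGAAG, the core motif bound by ETS factors such as Spi1, Fli1 and Erg. They run from 250 bases before to 50 bases after the gene start (RefSeq, GRCm38.p6), are written 5' to 3' on the strand of the gene, and have AGGAAG or its reverse complement CTTCCT in capitals. The 3 genes were chosen after their values and motifs were seen. Against A1/A2 P wells only Itga2b was higher, Prtn3 was lower and Mpo did not pass. Itga2b (CD41, chr11:102469834-102470133, minus strand) held 2 matches, Mpo (chr11:87793534-87793833, plus strand) 3 and Prtn3 (chr10:79879417-79879716, plus strand) 2.
Itga2b: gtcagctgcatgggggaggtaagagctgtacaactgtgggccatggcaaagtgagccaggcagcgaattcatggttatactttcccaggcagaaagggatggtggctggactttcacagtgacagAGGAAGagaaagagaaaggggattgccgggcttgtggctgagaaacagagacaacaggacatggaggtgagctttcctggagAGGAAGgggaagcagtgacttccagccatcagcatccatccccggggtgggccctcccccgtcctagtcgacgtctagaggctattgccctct
Mpo: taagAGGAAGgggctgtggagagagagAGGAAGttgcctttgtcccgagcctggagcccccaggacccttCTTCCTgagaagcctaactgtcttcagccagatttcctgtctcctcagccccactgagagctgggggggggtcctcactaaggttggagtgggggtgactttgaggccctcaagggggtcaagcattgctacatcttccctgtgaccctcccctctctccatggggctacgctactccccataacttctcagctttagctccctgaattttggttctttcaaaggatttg
Prtn3: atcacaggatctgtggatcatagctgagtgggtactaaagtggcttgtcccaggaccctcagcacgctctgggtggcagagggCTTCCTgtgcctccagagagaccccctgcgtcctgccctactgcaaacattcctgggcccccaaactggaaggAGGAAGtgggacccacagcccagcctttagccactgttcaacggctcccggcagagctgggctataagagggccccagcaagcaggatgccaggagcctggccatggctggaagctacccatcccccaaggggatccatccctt
AGGAAG was found on either strand in 35.4% of 32851 windows. Of 805 genes called at least 2-fold higher in progenitor than in other EMP wells, 604 matched a window and 47.4% of these held it, against 37.8% of the 1242 matched of 1676 genes called at least 2-fold lower and 37.2% of the 7335 matched of 9663 genes tested. The letters AGATAA, which Gata1 and its relatives bind, were held by 10.4% of the matched higher genes, 8.86% of the lower and 7.31% of the tested genes. Over all windows their share was 11.2%, above that of the higher genes. The letters TGTGGT, which Runx1 binds, were held by 17.4%, 16.3% and 14.4%, and by 16.8% of all windows. A gene counted where any of its windows held the letters, whereas the shares over all windows are per window. A match is a string of letters and not a measured site.

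What progenitor wells carried besides the rule's genes was first read against all other EMP wells. Progenitor wells had higher levels of blood transcription factors, megakaryocyte surface proteins, granule enzymes and enzymes of prostaglandin and leukotriene synthesis, and lower levels of endoderm and collagen genes. The wells were chosen by transcripts of this same contrast, so its values are a description and no p-value is given. By edgeR's quasi-likelihood test with library as a block, at an adjusted p under 0.05, 5933 of 9663 genes were called (61.4%), 2823 higher (29.2%) and 3110 lower (32.2%), from which nothing is read. In each comparison a gene rare in either group could pass the filter on low counts only through the other group. The counts of list members called, such as those of granule and megakaryocyte genes, are thus partly set by that filter. With sums scaled to their totals only, the split was 4339 higher and 2274 lower, and the median log2 difference of all genes was 0.29 in place of 0.02.

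Of the surface genes, 13 of 16 tested were called higher and 0 lower (median log2 fold change 1.94). Kit had 137, 111, 126 and 118 CPM in the progenitor wells of libraries 1 to 4, against 36.7, 18.0, 49.9 and 29.2 CPM in the other wells (log2 fold change 1.90 ± 0.16, SE). Itga2b, the integrin chain CD41, had 81.6, 60.6, 90.8 and 87.8 CPM, against 11.7, 14.3, 29.3 and 13.8 CPM (2.22 ± 0.18). In both genes the 4 progenitor sums lay above all 4 of the other wells. Adgrg1 (2.43 ± 0.25), the integrin chains Itga4 (2.06 ± 0.18) and Itgb3 (2.46 ± 0.24), and the sialomucin Spn (CD43; 2.17 ± 0.26) had the same order. Fcgr3, Csf2ra and Itgb1 did not pass.

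Of 23 blood transcription factors tested, 22 were called higher (median 2.01), all but Hlf. Gfi1b, a transcriptional repressor that acts in the erythroid and megakaryocyte lineages, had 65.2, 60.6, 66.3 and 44.3 CPM in progenitor wells, against 7.27, 5.35, 14.9 and 5.85 CPM in the other wells (2.83 ± 0.20). Myb, which definitive blood needs, had 103, 73.2, 52.9 and 87.8 CPM, against 15.8, 7.30, 16.5 and 9.60 CPM (2.65 ± 0.23). Gata1 was at 48.5 ± 13.3 CPM in progenitor wells and 9.80 ± 3.89 CPM in the other wells, and Spi1 at 38.9 ± 7.81 and 7.62 ± 3.73 CPM (SD, n = 4). Factors of both branches were thus higher in the same 4 sums. Gata2 (2.37 ± 0.30), Lyl1 (2.36 ± 0.24), Ikzf1 (2.44 ± 0.16), Fli1 (2.12 ± 0.15) and the Gata1 cofactor Zfpm1 (1.98 ± 0.14) were higher as well. With each well thinned to 5000 transcripts Fli1 was at 1.37 and Gfi1b at 3.54.

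Megakaryocyte and platelet genes were called higher in 10 of 11 tested of 18 listed (median 2.30). Gp9, a chain of the von Willebrand factor receptor, had 17.2, 9.15, 25.3 and 16.0 CPM in progenitor wells, against 1.58, 2.19, 2.13 and 0.835 CPM in the other wells (3.23 ± 0.35). Treml1 had 14.2, 18.3, 18.9 and 11.6 CPM, against 0.632, 4.62, 1.07 and 1.25 CPM (3.08 ± 0.39, and 3.91 without library 2). Both were low in level but the groups did not overlap. The thrombin receptors F2r (1.62 ± 0.12) and F2rl2 (2.26 ± 0.32), the platelet receptors Treml2 (2.80 ± 0.20) and P2rx1 (2.65 ± 0.30), and Slc35d3, which dense granules of platelets need (2.74 ± 0.21), were higher too. The chemokine gene Pf4 did not pass.

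Myeloid granule genes were called higher in 4 of 4 tested of 16 listed. Mpo, the peroxidase of granulocyte precursors, had 46.4, 64.0, 68.7 and 41.4 CPM in progenitor wells, against 6.95, 5.84, 8.27 and 1.67 CPM in the other wells (3.25 ± 0.21). Prtn3, a granule protease, had 67.4, 73.2, 92.4 and 79.1 CPM, against 8.53, 6.32, 16.3 and 7.93 CPM (2.998 ± 0.17, and 3.60 with no minimum on the P ratio). The progenitor sums did not overlap the others in either gene. Csf3r, the granulocyte colony-stimulating factor receptor (1.79 ± 0.19), and Lyz1 (1.72 ± 0.20) completed the group. Of the prostaglandin and leukotriene genes, 5 of 6 were called higher (median 2.28). Cyclooxygenase 1, Ptgs1, averaged 164 ± 18.7 CPM in progenitor wells and 29.0 ± 11.0 CPM in the other wells (SD, n = 4; 2.50 ± 0.15). The phospholipase Pla2g4a (2.53 ± 0.32), the lipoxygenase Alox5 (2.80 ± 0.23, and 3.42 with no minimum on the P ratio) and its partner Alox5ap (2.05 ± 0.28) were higher too.

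Genes of leukocyte signalling and the actin skeleton were called higher in 29 of 33 tested and lower in 2 (median 1.98). Vav1, a signalling protein of blood cells, had 25.5, 25.2, 25.3 and 19.6 CPM in progenitor wells, against 3.16, 1.95, 2.93 and 0.418 CPM in the other wells (3.43 ± 0.31). Hcls1 (2.45 ± 0.20), Arhgdib (2.24 ± 0.14), Dock8 (2.08 ± 0.16) and Nckap1l (2.07 ± 0.18) went the same way, as did the kinase Syk (2.73 ± 0.23) and Coro2a (2.77 ± 0.20). Cotl1, an actin-binding protein, went the other way, with 58.8 ± 11.7 CPM in progenitor wells and 205 ± 32.7 CPM in the other wells (SD, n = 4; -1.80 ± 0.09).

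Ribosome biogenesis and MYC genes were called higher in 21 of 22 tested (median 0.67), among them Myc (1.63 ± 0.10), the rRNA pseudouridine synthase Dkc1 (1.35 ± 0.08), Pa2g4 (0.94 ± 0.06) and Npm1, which had 4535 ± 325 CPM in progenitor wells and 2483 ± 194 CPM in the other wells (SD, n = 4; 0.87 ± 0.06). Of 25 proliferation genes 15 were called higher and 1 lower (median 0.41), with the replication genes Mcm3 (0.88 ± 0.10), Mcm5 (0.79 ± 0.09) and Rrm1 (0.77 ± 0.09) among the higher.

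All 28 endoderm genes on the list were called lower in progenitor wells (median -2.33). Apob had 196, 176, 238 and 158 CPM, against 874, 777, 1300.4 and 955 CPM in the other wells (-2.34 ± 0.08), Krt18 was at -2.58 ± 0.08, Fgb at -2.21 ± 0.08 and Apoe at -1.74 ± 0.06. Endoderm transcripts were nevertheless found in all classes: the list's summed level per 10000 transcripts had a median of 27.1 in progenitor wells (8.27 to 184) and 0 of 141 wells were without one, against 46.4 in endothelial wells and 264 in endoderm wells. What this background adds to the lower calls was not tested. By the naming rule the lowest genes were Col1a1 (-4.69 ± 0.21), Col3a1 (-4.30 ± 0.20), Col1a2 (-3.49 ± 0.36, and -2.73 without library 1), Mcoln2 (-3.17 ± 0.21), Ass1 (-3.00 ± 0.18), Smlr1 (-2.99 ± 0.17), Klb (-2.95 ± 0.21), Bend7 (-2.92 ± 0.24), Cfi (-2.92 ± 0.19) and Itga3 (-2.87 ± 0.19). With a minimum ratio of 2 Mcoln2 was at -3.85, Ass1 at -3.73, Smlr1 at -3.68, Klb at -3.62, Krt18 at -3.19 and Apob at -2.97, and with no minimum Mcoln2 was at -2.46 and Itga3 at -2.21. In wells of at least 10000 transcripts Klb was at -3.68 and Krt18 at -3.17, with a lower minimum on transcripts per well Col1a1 at -3.88 and Col3a1 at -3.69, with thinned wells Ass1 at -4.30, and in progenitor wells with V and E ratios under 1 Itga3 at -3.74. In the collagen genes the groups were uneven: Col1a1 had 15.0, 1.14, 12.6 and 2.90 CPM in progenitor wells, against 541, 49.9, 244 and 11.7 CPM in the other wells, which overlap. With no minimum on the P ratio Col1a1, Col3a1 and Col1a2 were at -0.77, -0.77 and -0.83 and were not called, and without the library block Col3a1 and Col1a2 were not called. The imprinted fetal genes H19 (-1.81 ± 0.06) and Igf2 (-1.08 ± 0.07) were lower, with 10 of 14 genes of the fetal list called lower and 3 higher.

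The endothelial wells were set against progenitor wells separately, since hemogenic endothelium is known as the source of these progenitors. Progenitor and endothelial wells had overlapping levels of Kit, Cd34, Erg, Fli1 and F2r. They differed in Gata1, Myb, Mpo and Prtn3 on the progenitor side and in vascular, endoderm and fetal genes on the endothelial side. Both classes were chosen from these transcripts, so this is again a description. The P ratio of the 57 endothelial wells had a median of 0.583, an upper quartile of 1.29 and a highest value of 3.83. Some endothelial wells thus also passed the P threshold of progenitor wells, with V higher still. No alternative left these mixed wells out of the endothelial class, so what they add to the overlaps and differences was not tested. There were 1888 calls among 7039 genes (26.8%), 798 higher (11.3%) and 1090 lower (15.5%) in progenitor wells. Scaled to totals only, the split was 1198 higher and 924 lower at a median of 0.14 over all genes in place of 0.02, and DESeq2 called 273 higher and 659 lower.

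Kit had 146, 115, 133 and 126 CPM in progenitor wells, against 99.6, 148, 105 and 76.7 CPM in endothelial wells (0.34 ± 0.17). It did not pass here but passed, at 0.43 to 0.53, in wells of at least 10000 transcripts, with totals-only scaling, with no filter on low counts and without library 2. Cd34, a sialomucin of both lineages, had 228, 154, 206 and 249 CPM, against 185, 142, 235 and 202 CPM (0.13 ± 0.13). The ETS factors Erg (-0.11 ± 0.24) and Fli1 (0.07 ± 0.18) and the thrombin receptor F2r (-0.13 ± 0.14) did not pass either, and for each of the 5 genes the libraries of both classes overlapped. None of these misses shows that the levels are the same.

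Gata1 had 62.3, 61.7, 47.5 and 33.5 CPM in progenitor wells, against 0, 12.3, 0 and 0 CPM in endothelial wells. The counts were 230 and 2, which is 29.6 times as much per transcript counted (95% exact interval 8.10 to 246). Prtn3 had 380 counts in progenitor wells and 3 in endothelial wells, or 32.6 times as much (11.1 to 159). Both intervals cover counting error only. With a minimum of 10000 transcripts the EMP means and classes were set anew. Endothelial wells then numbered 15, 11, 17 and 14 in libraries 1 to 4. The fitted log2 fold changes were lower, 2.56 for Gata1 and 3.02 for Prtn3, against 4.65 and 4.82 with a minimum of 5000. What depth and the changed classes each add was not tested. With no minimum on any ratio, which also added endothelial wells, Gata1 was at 3.74 and Prtn3 at 3.36. Without library 2 Gata1 was at 8.26, and without library 4, which holds every endothelial count of Prtn3, Prtn3 was at 8.84; neither is a bound. Mpo was 2.80 ± 0.39 higher (3.64 without library 3). Of 4 genes of the granule and monocyte list that were tested 3 were called higher, and Lyz1 did not pass (-0.13 ± 0.31). Of 22 blood transcription factors 14 were called higher and 0 lower (median 0.84), with Nfe2 (2.33 ± 0.35), Gfi1b (2.00 ± 0.33), Ikzf1 (1.84 ± 0.23), Myb (1.78 ± 0.29), Zfpm1 (1.77 ± 0.29) and Spi1 (1.40 ± 0.35) among them. In wells of at least 10000 transcripts Nfe2 was at 1.74, Ikzf1 at 1.22 and Zfpm1 at 1.13, and Ikzf1 was at 2.60 with thinned wells. Adgrg1 (1.52 ± 0.24), Itgb3 (1.48 ± 0.25), Rab27b (1.47 ± 0.28) and Itga2b (1.05 ± 0.24) were higher, as were Ly6e (2.27 ± 0.23), Csf1r (2.18 ± 0.45), the regulator Rgs18 (3.32 ± 0.37), the oxidase subunit Ncf1 (2.75 ± 0.36), Bin2 (2.59 ± 0.17) and the cell cycle kinase Cdk6 (2.52 ± 0.20). Of 14 surface genes tested 8 were called higher and 2 lower, Cd93 (-2.39 ± 0.16) and Itgb1 (-0.72 ± 0.12). Ribosome biogenesis genes were called higher in 17 of 22, with Pa2g4 at 0.92 ± 0.10 and Myc at 1.63 ± 0.22, and Ptgs1 was at 1.56 ± 0.18.

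Of 24 endothelial genes tested, 22 were called lower in progenitor wells and 1 higher (median -2.60). Flt1, a receptor of vascular endothelial growth factor, had 59.1, 61.7, 66.7 and 49.9 CPM, against 273, 234, 211 and 258 CPM in endothelial wells (-2.04 ± 0.15). Esam, a junction protein, had 44.7, 33.2, 36.7 and 48.3 CPM, against 164, 185, 183 and 149 CPM (-2.04 ± 0.18). Both stayed well above 0 in all 4 progenitor sums. The neuropilins Nrp1 (-4.75 ± 0.24) and Nrp2 (-2.80 ± 0.21), Mmrn2 (-4.27 ± 0.28), the scavenger receptor Stab1 (-5.27 ± 0.42), Gpr182 (-5.50 ± 0.38), the apelin receptor Aplnr (-5.19 ± 0.38), the Notch ligand Dll4 (-4.58 ± 0.46) and the arterial factor Sox17 (-3.68 ± 0.40) were lower by more. In the progenitor wells whose V and E ratios were both under 1, Aplnr was at -6.86, Gpr182 at -6.32, Dll4 at -5.78, Nrp1 at -5.60 and Mmrn2 at -5.47. With thinned wells Gpr182 was at -6.9986, Aplnr at -5.90, Nrp1 at -5.67 and Mmrn2 at -5.09, and Nrp1 was at -3.70 with no minimum on any ratio. Dll4 was at -3.98 with a lower minimum on transcripts per well. Genes of other lists were lower in progenitor wells too, beside 15.5% of all genes. Of 24 endoderm genes tested 23 were called lower (median -1.07), and what endoderm background adds was not tested. Of 14 fetal genes 9 were called lower and 1 higher. Igf2 had 982 ± 152 CPM in progenitor wells and 4639 ± 788 CPM in endothelial wells (SD, n = 4; -2.24 ± 0.16), and H19 was at -1.60 ± 0.08. Against all other EMP wells the endothelial genes Tie1 (1.18 ± 0.18), Pecam1 (0.96 ± 0.19) and Cd34 (2.02 ± 0.23) were higher in progenitor wells, with 9 of 20 of the list called higher and 5 lower. Tie1 was at 0.38 and did not pass with wells thinned to 5000 transcripts.

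**Figure D1:**
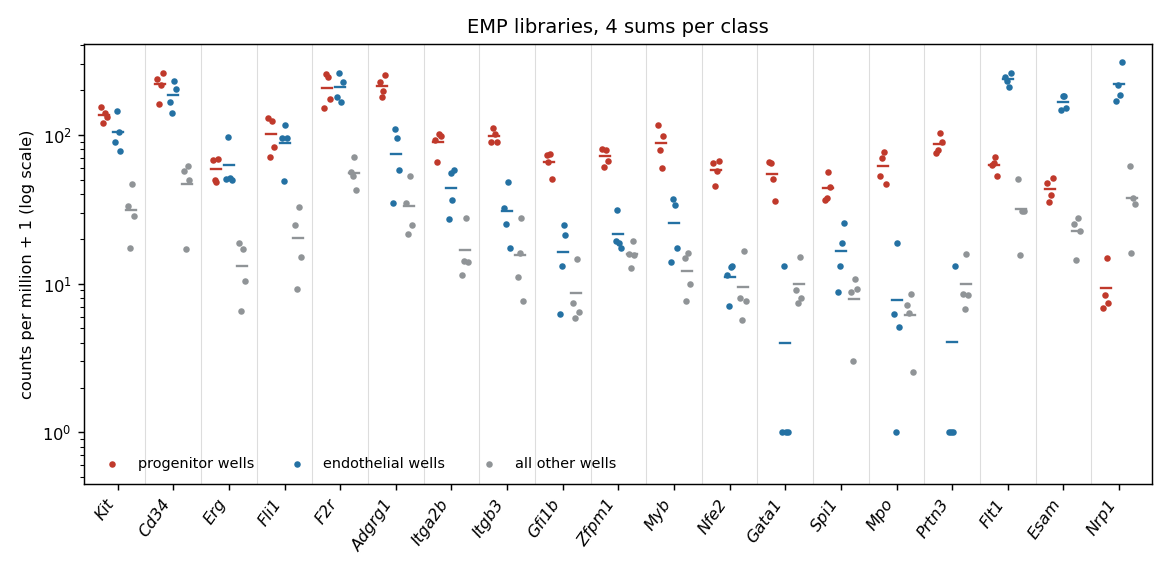
CPM plus 1 (log scale, here sums divided by their totals alone) of 19 genes in progenitor, endothelial and all other EMP wells; points are the 4 libraries and bars their means. Kit, Cd34, Erg, Fli1 and F2r overlap between progenitor and endothelial wells, whereas Gata1 lies at 0 in 3 of 4 endothelial sums and Nrp1 is far lower in progenitor wells.

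Among themselves, progenitor wells were not uniform. To compare wells of unequal depth, each was thinned to 5000 transcripts, and shares are given as means over the 4 libraries. A Kit transcript was then found in 56.2% ± 8.19 of progenitor wells (92.4% unthinned), against 38.9% ± 12.9 of endothelial wells and 3.90% ± 2.16 of endoderm wells (SD, n = 4). Adgrg1 was found in 67.3% ± 1.66 (96.9% unthinned), Itga2b in 30.6% ± 3.45 (78.0%) and Gata2 in 32.8% ± 6.37 (73.9%). In endoderm wells, taken as background for free RNA, the shares were 7.75%, 3.51% and 4.64%.

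Gata1 was found in 16.5% ± 3.43 of thinned progenitor wells (33.2% unthinned) and Spi1 in 16.5% ± 6.59 (62.0%), against 2.71% and 1.43% of endoderm wells. At their own depth 24 of 141 progenitor wells had both, 23 only Gata1, 63 only Spi1 and 31 neither. Thinned, 2 wells had both, 21 only Gata1 and 22 only Spi1. At this depth most wells show neither gene, and a missing transcript does not show that the gene is off. Mpo was found in 19.4% ± 3.40 of thinned progenitor wells (52.8% unthinned), Prtn3 in 23.0% ± 5.45 (69.0%) and Pf4 in 10.3% ± 7.32 (40.3%). In endoderm wells they were found in 1.58%, 1.39% and 2.61%. Unthinned, Pf4 and Mpo were both present in 26 wells, Pf4 alone in 31 and Mpo alone in 48.

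Genes of mature blood cells differed widely in how many progenitor wells held them at full depth. Csf1r was found in 40.1% and, as given above, Mpo, Prtn3 and Pf4 in 40.3% to 69.0%. The following genes were chosen after their values were seen. Klf1 and Alas2, both needed for hemoglobin synthesis in red cells, were found in 1 progenitor well each. Elane and S100a8 of granulocytes were found in 2 wells each, the mast cell protease Cpa3 in 13 and Cebpa in 16. The macrophage genes Adgre1 and Cd14 were found in 2 wells and 1 well, and Ctsg and Trem2 in 0 of 141, which allows a share of wells with a transcript of up to 2.13%, for counting error only. Globin transcripts were in all but 2 progenitor wells, at a median of 4.35 per 10000 transcripts, against 5.19 in endothelial wells and 4.67 in endoderm wells. The median level of globins thus did not set progenitor wells apart from endothelial or endoderm wells. Globins were uneven among progenitor wells: 1 well had 741 globin transcripts per 10000, the next 163, 81.5 and 46.8, and thinned counts of Hba-x had a variance of 71.4 times their mean. Of 11 erythroid genes tested against all other EMP wells 2 were called higher and 3 lower (median -2.33), beside 29.2% and 32.2% of all genes. The erythroid list's summed level reached 758 per 10000 in a progenitor well and 2899 in another EMP well.

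**Figure D2:**
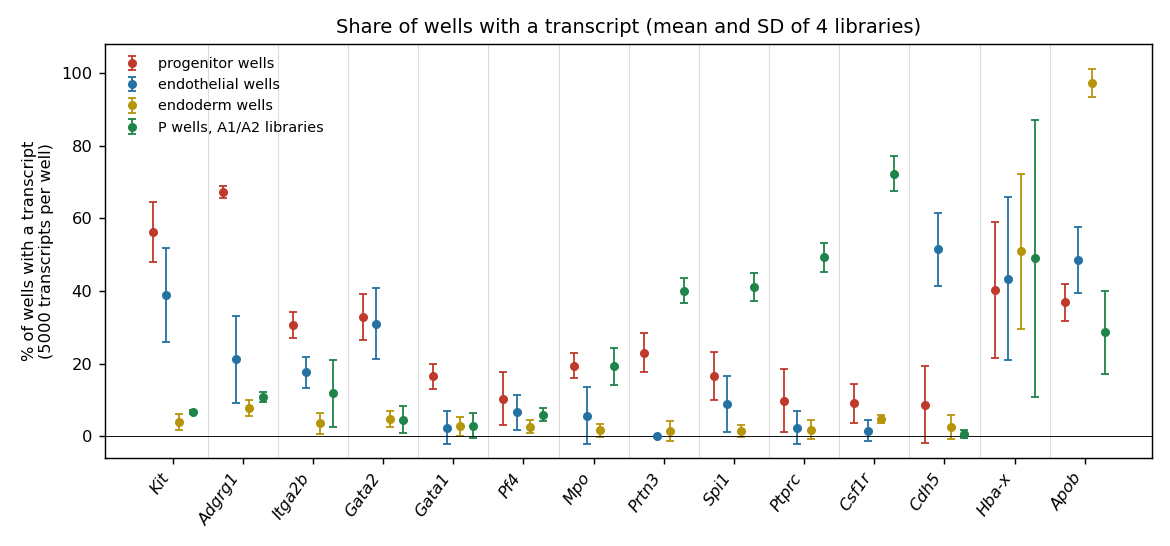
Share of wells with a transcript after thinning to 5000 transcripts per well (y axis, %), as mean and SD of 4 libraries for progenitor, endothelial, endoderm and A1/A2 P wells. Kit and Adgrg1 lead in progenitor wells, whereas Spi1, Ptprc and Csf1r lead in A1/A2 P wells and Hba-x shows similar means with wide spread in all classes.

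The comparison that the choice of wells did not fix was that of progenitor wells with A1/A2 P wells, since 1 rule picked both. Progenitor wells of the EMP libraries carried more Kit, Mycn, Erg, megakaryocyte and endothelial transcripts, and fewer macrophage and actin transcripts, than A1/A2 P wells. The sort label and the library are one thing here and cannot be told apart. Set P itself had a median level of 13.9 per 10000 in progenitor wells and 16.0 in A1/A2 P wells. By edgeR's quasi-likelihood test without a block, 2427 of 8769 genes were called (27.7%), 1122 higher (12.8%) and 1305 lower (14.9%), and 339 and 495 of these by at least 2-fold. The median log2 fold change over all genes was 0.01. With wells thinned to 5000 transcripts 458 of 3270 genes were called.

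Of the surface genes, 8 of 16 were higher and 6 lower (median 0.50). Kit had 148, 118, 136 and 128 CPM in the progenitor wells of EMP libraries 1 to 4, against 13.2, 17.2, 24.9 and 10.8 CPM in the P wells of A1/A2 libraries 1 to 4 (log2 fold change 3.07 ± 0.18, SE; edgeR adjusted p = 8.75e-12). Adgrg1 had 219, 178, 191 and 247 CPM, against 35.8, 13.3, 43.4 and 36.0 CPM (2.68 ± 0.24; edgeR adjusted p = 2.51e-05). All 4 EMP sums were above all 4 A1/A2 sums in both genes. Ptprc, named because CD45 was stained for the sort, went the other way, with 35.6, 14.6, 33.1 and 7.93 CPM in progenitor wells, against 114, 150, 120 and 146 CPM in A1/A2 P wells (-2.50 ± 0.34; edgeR adjusted p = 0.000843). It was found in 9.75% ± 8.71 of thinned progenitor wells (33.6% unthinned) and 49.3% ± 4.002 of A1/A2 P wells (SD, n = 4). Csf1r, the receptor for macrophage colony-stimulating factor, had 33.2, 51.2, 39.1 and 17.4 CPM, against 296, 372, 282 and 316 CPM (-3.21 ± 0.22; edgeR adjusted p = 1.11e-06), and was found in 9.02% ± 5.46 of thinned progenitor wells (40.1% unthinned) and 72.3% ± 4.74 of A1/A2 P wells. Endoderm wells had Csf1r in 4.78% ± 1.11. Ly6e was lower as well (-1.24 ± 0.12). With thinned wells Ptprc was at -3.22, Csf1r at -3.998 and Ly6e at -2.16.

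Of 22 blood transcription factors, 13 were higher and 4 lower (median 1.29). Mycn, a MYC family factor, had 169, 128, 126 and 144 CPM in progenitor wells, against 5.50, 3.13, 5.62 and 3.94 CPM in A1/A2 P wells (4.94 ± 0.20; edgeR adjusted p = 5.59e-15). Erg, an ETS factor of endothelium and blood stem cells, had 64.8, 48.8, 45.8 and 66.6 CPM, against 2.75, 1.56, 4.82 and 0.986 CPM (4.54 ± 0.30; edgeR adjusted p = 5.20e-11, and 5.45 without the deepest wells). These were the highest and the next highest of the 10 higher genes picked by fold, whose EMP sums averaged 50 CPM or more. Gfi1b (2.97 ± 0.21), Nfe2 (1.76 ± 0.20), Myb (1.68 ± 0.22) and Bcl11a (1.56 ± 0.16) rose too, and Spi1 fell, with 34.8, 36.6, 53.5 and 42.8 CPM in progenitor wells, against 94.6, 104, 132 and 140 CPM in A1/A2 P wells (-1.48 ± 0.16; edgeR adjusted p = 1.58e-07).

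The GATA factors did not pass, and single A1/A2 libraries moved both. Gata2 had 93.2, 158, 95.9 and 105 CPM in progenitor wells, against 4.95, 6.25, 86.7 and 8.87 CPM in A1/A2 P wells (2.22 ± 0.86; edgeR adjusted p = 0.110, with a range of 1.74e-10 to 0.234 over the alternatives). Without A1/A2 library 3 the log2 fold change was 4.02 (edgeR adjusted p = 1.74e-10), 4.06 without the deepest wells (over 3 times their library's median total) and 2.87 with thinned wells, all of which passed. Gata1 had 63.2, 63.4, 48.4 and 34.1 CPM, against 0, 1.56, 23.3 and 13.8 CPM (2.46 ± 0.76; edgeR adjusted p = 0.0578, with a range of 0.0231 to 0.187), and passed at 3.15 without A1/A2 library 3, at 1.99 without A1/A2 library 1, at 2.98 without the deepest wells and at 2.61 with a minimum ratio of 2. For both genes the EMP sums lay above every A1/A2 sum.

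Megakaryocyte and platelet genes were higher in 9 of 10 tested of 18 listed (median 2.63). Itga2b had 88.3, 64.6, 97.6 and 96.0 CPM in progenitor wells, against 9.90, 18.0, 24.1 and 25.6 CPM in A1/A2 P wells (2.18 ± 0.21; edgeR adjusted p = 3.65e-07, and 1.43 with thinned wells). Nrgn, a calmodulin-binding protein also found in platelets, had 153, 161, 154 and 144 CPM, against 20.9, 27.4, 20.9 and 39.9 CPM (2.45 ± 0.16; edgeR adjusted p = 7.30e-11). No sums of the 2 kinds of library overlapped in either gene. Rab27b, which secretes platelet granules (3.79 ± 0.54), the thrombin receptor F2r (3.62 ± 0.58), Treml1 (2.9998 ± 0.53), Gp9 (1.75 ± 0.36) and Itgb3 (1.60 ± 0.16) were higher too, and without A1/A2 library 4, the highest of the A1/A2 sums in the first 3, Rab27b was at 4.90, F2r at 4.82 and Treml1 at 4.41. Clec1b, the platelet receptor CLEC-2 (3.23 ± 0.26), and Mmrn1 (3.40 ± 0.28) were among the 10 genes the rule named, as was carbonic anhydrase 2, Car2 (3.17 ± 0.29). Pf4 did not pass (0.99 ± 0.53; edgeR adjusted p = 0.219, with a range of 0.00399 to 0.375), with 29.1 CPM in A1/A2 library 4, and passed at 1.65 without that library, at 0.98 with no filter on low counts and at 1.05 with library number as a block.

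Endothelial genes were higher in 8 of 14 tested and lower in 3 (median 1.27); the higher ones included Cd34, Tal1 and Ets1, which blood progenitors also express. Tie1, an endothelial receptor kinase, had 151, 134, 156 and 174 CPM in progenitor wells, against 22.0, 25.01, 17.7 and 15.8 CPM in A1/A2 P wells (2.95 ± 0.15; edgeR adjusted p = 5.63e-13, and 3.75 with thinned wells). Esam had 45.4, 34.1, 37.4 and 49.2 CPM, against 0, 1.56, 1.61 and 2.46 CPM (4.80 ± 0.36; edgeR adjusted p = 3.42e-10). Tek, the angiopoietin receptor (3.03 ± 0.33), Rasip1 (4.10 ± 0.28), Ctla2a (3.73 ± 0.19, and 2.65 with thinned wells) and Neurl3, a gene of hemogenic endothelium (2.98 ± 0.35), were higher. Endothelial wells numbered 17, 11, 18 and 11 in EMP libraries 1 to 4, but 0, 1, 1 and 0 in A1/A2 libraries 1 to 4. What free RNA of endothelial cells or mixed wells add to these differences was not tested. Of the endoderm list 20 of 23 genes did not pass, 2 were higher and 1 lower (median 0.07), and its summed level had a median of 27.1 per 10000 in progenitor wells and 25.4 in A1/A2 P wells.

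Macrophage genes were lower in 14 of 15 tested of 20 listed and higher in 0 (median -3.55). Cx3cr1, the fractalkine receptor, had 2.43, 19.5, 11.0 and 0.793 CPM in progenitor wells, against 198, 216, 131 and 174 CPM in A1/A2 P wells (-4.58 ± 0.50; edgeR adjusted p = 0.00063, -5.24 without EMP library 2 and -5.65 with a minimum ratio of 2). C1qb, a complement chain of macrophages, had 46.2, 34.1, 6.79 and 7.93 CPM, against 413, 433, 391.8 and 412 CPM (-4.15 ± 0.49; edgeR adjusted p = 0.00114, and -4.82 without EMP library 1). Itgam, which encodes the stained antigen CD11b, had 5.67, 13.4, 16.1 and 5.55 CPM, against 53.3, 63.3, 65.0 and 57.7 CPM (-2.58 ± 0.24; edgeR adjusted p = 1.30e-08, and -3.66 with thinned wells). Macrophage transcripts were thus low in all 4 EMP libraries, and the C1q genes highest in libraries 1 and 2. Fcgr1 (-3.55 ± 0.30), Cd68 (-2.77 ± 0.27), C1qc (-3.94 ± 0.43, and -4.60 without EMP library 1), C3ar1 (-3.67 ± 0.29, and -4.37 without EMP library 1), Irf5 (-4.08 ± 0.26), Cybb (-3.74 ± 0.52, -4.86 without EMP library 3 and -5.70 with thinned wells), Ly86 (-5.13 ± 0.46, and -5.87 to -6.06 without EMP library 3, without the deepest wells, in wells of at least 10000 transcripts or with a minimum ratio of 2), Ccl6 (-4.68 ± 0.54) and Ccl3 (-6.06 ± 0.59) were lower. Ccl3 did not pass with thinned wells (-8.21; edgeR adjusted p = 0.133). H2-Aa of MHC class II (-5.22 ± 1.33) had an edgeR adjusted p = 0.0299 and did not pass without A1/A2 library 1 or without any 1 of the EMP libraries (0.0620 to 0.0846), nor without the deepest wells (0.0777) or a filter on low counts (0.0515), and without A1/A2 library 3 it was at -4.46. The part of the sort in these differences cannot be told apart from that of the cells.

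Of 7 granule and monocyte genes tested 4 were lower and 0 higher (median -1.99). Prtn3 had 72.9, 78.0, 99.3 and 86.5 CPM in progenitor wells, against 228, 178, 218 and 187 CPM in A1/A2 P wells (-1.26 ± 0.12; edgeR adjusted p = 1.45e-08), and F13a1 was at -1.99 ± 0.28. Mpo had 50.2, 68.3, 73.9 and 45.2 CPM, against 69.3, 57.8, 122 and 48.8 CPM (-0.31 ± 0.32; edgeR adjusted p = 0.532), and its groups overlapped. Leukocyte and actin genes were lower in 22 of 33 and higher in 1 (median -0.83). Tmsb4x, the actin-binding thymosin beta 4, had 1263, 1381, 1362 and 1405 CPM, against 4080, 4369, 4394 and 4516 CPM (-1.68 ± 0.07; edgeR adjusted p = 2.30e-14). Lcp1 (-1.32 ± 0.12), Laptm5 (-0.98 ± 0.11) and Fyb (-1.96 ± 0.18, and -3.27 with thinned wells) fell as well.

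Of 25 proliferation genes 19 did not pass, 4 were higher and 2 lower (median 0.02), and of 22 ribosome biogenesis and MYC genes 16 did not pass, 1 was higher, Mycn, and 5 lower (median -0.15), beside 27.7% of all genes called. Cyclin B2, Ccnb2, was at 0.84 ± 0.11 and Nop58 at -0.41 ± 0.10, which did not pass with thinned wells (-0.49; edgeR adjusted p = 0.0528). Of 13 fetal genes 5 were higher and 2 lower (median 0.31). Igf2 had 1189, 858, 904 and 1050.1 CPM in progenitor wells, against 332, 309, 208 and 341 CPM in A1/A2 P wells (1.75 ± 0.15; edgeR adjusted p = 4.57e-06), Hmga2 was at 1.41 ± 0.10 and the imprinted Grb10 at 1.25 ± 0.25 (2.22 without the deepest wells). Glycolysis genes were lower in 8 of 14 and higher in 0 (median -0.31), with the lactate transporter Slc16a3 (-1.58 ± 0.15), Pgk1 (-1.58 ± 0.34) and Gapdh (-0.51 ± 0.09). Of 13 heme and iron genes 3 were higher and 4 lower, with heme oxygenase Hmox1 at -1.95 ± 0.22 and the ferritin chains Ftl1 at -1.58 ± 0.28 and Fth1 at -0.66 ± 0.11. Ftl1 did not pass with library number as a block (-1.53; edgeR adjusted p = 0.0686), nor did Fth1 with thinned wells (-1.31; edgeR adjusted p = 0.0744) or without the deepest wells (-0.93; edgeR adjusted p = 0.0728). The prostaglandin and leukotriene genes, high in progenitor wells among EMP wells, were lower in 2 of 7 here and did not pass in 5 (median -0.05). Hpgds, the hematopoietic prostaglandin D synthase, was at -2.15 ± 0.25, whereas Alox5 had 39.7, 37.8, 42.4 and 44.4 CPM, against 54.4, 32.0, 57.8 and 48.8 CPM (-0.23 ± 0.17; edgeR adjusted p = 0.336). Of 9 genes that respond to tissue dissociation 1 was higher and 3 lower, with Jun at -1.62 ± 0.18 and Klf2 at -2.54 ± 0.33 (-4.39 with thinned wells). What handling adds to these differences was not tested.

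**Figure D3:**
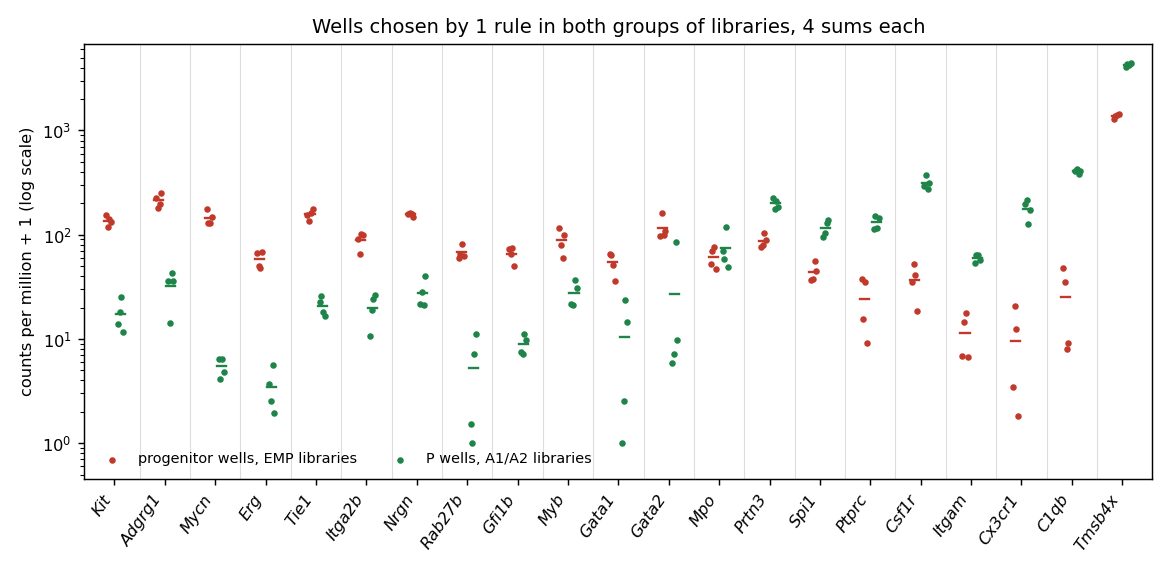
CPM plus 1 (log scale, here sums divided by their totals alone) of 21 genes in the progenitor wells of the EMP libraries and the P wells of the A1/A2 libraries; points are the 4 libraries and bars their means. Kit, Mycn and Erg lie higher in progenitor wells without overlap, Csf1r, Cx3cr1, C1qb and Tmsb4x lower, and Gata2 is high in 1 of the 4 A1/A2 libraries.

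**Figure D4:**
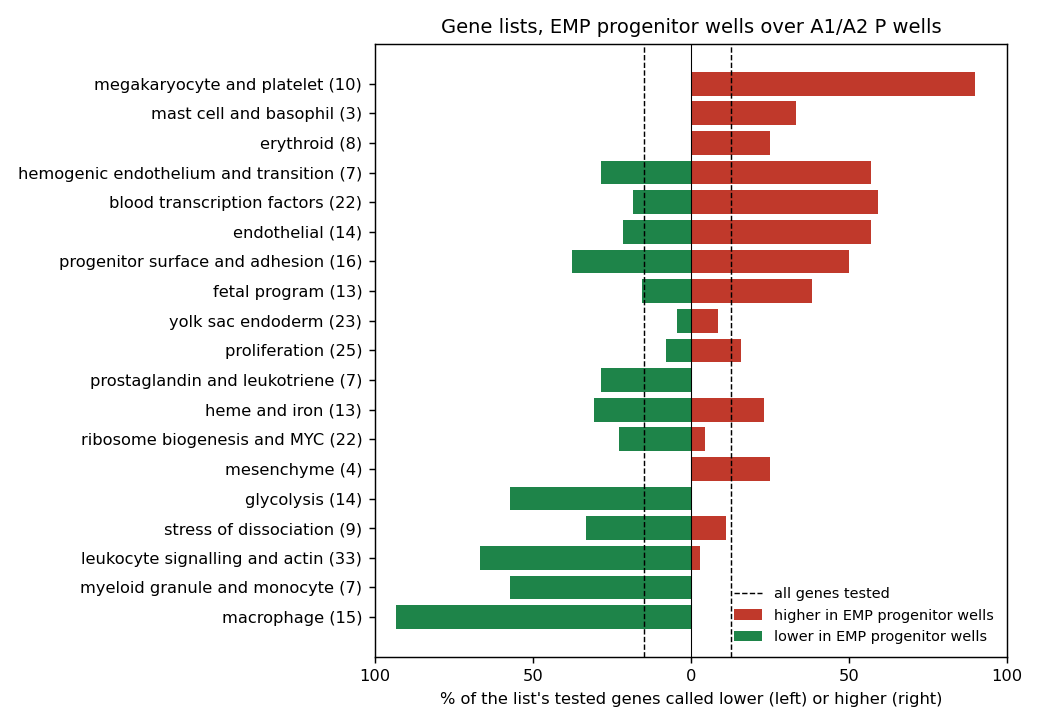
Percent of the tested genes of each list (number in brackets) called higher (right) or lower (left) in progenitor wells of the EMP libraries over A1/A2 P wells, ordered by median log2 fold change. Dashed lines mark the 12.8% higher and 14.9% lower calls among all genes tested: 9 of 10 megakaryocyte genes were higher and 14 of 15 macrophage genes lower.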

How the data were processed

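Single-cell transcript counts of 8 mCEL-Seq2 libraries were used. For each well and gene the authors deposited an estimated count of transcripts, which is not scaled for depth. The values return whole numbers once a correction for identifier collisions is undone. BWA 0.6.2-r126 and Seurat are named per the submitters' processing notes, and the sources used here give no build or annotation. Wells under 5000 transcripts were left out. Counts were summed per library and class, rounded, and tested with edgeR 4.0.16 (TMM, filterByExpr, robust glmQLFit, glmQLFTest) in R 4.3.3 with Benjamini-Hochberg adjustment over all genes tested. The 19 rule genes were left out of the tests. Library was a block within EMP libraries. SE is the absolute log2 fold change over the square root of F. Alternatives used DESeq2 1.42.0, other thresholds, scaling, thinning and libraries left out. Another minimum on transcripts also set the EMP means and classes anew, and another minimum ratio applied to P, V and E alike. The test code was also run on simulated counts with the same dispersion in every gene and no library effect. That run does not cover the spread of the real libraries. Shares carry no test, because an exact two-sided sign-flip test over 4 libraries cannot go below 0.125.

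Named genes are the 10 higher and 10 lower by fold whose higher group averaged 50 CPM or more and whose direction was the same in all libraries, without predicted, ribosomal protein and mitochondrial genes, up to 6 genes per list by smallest p, and list members that did not pass. Not all of them are named, and Ptprc and the genes of mature blood cells were added after values were seen. The wells and lists were chosen with earlier results of these data known. Some genes of the lists are not reported here.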

Additional observations from a re-analysis of the deposited data

Results flagged for a closer look

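In 14 of 243 groups of 4 libraries, 1 library stood apart from the other 3: its gap to the nearest, as a share of the group's range, was above the 95% critical value of Dixon's test for 4 values. Chance alone puts about 1 in 20 groups there. Among progenitor wells set against other EMP wells, Vav1 was lowest in library 4 at 19.6 CPM (gap share 0.948), Krt18 was highest in library 3 at 75.8 CPM (0.909), Rrm1 highest in library 3 at 189 CPM (0.883) and Gata2 highest in library 2 at 149 CPM (0.846). Among the other EMP wells of that comparison, Slc35d3 (0.883) and Itga2b (0.850) were highest in library 3, Treml1 (0.844) in library 2 and Ass1 (0.874) in library 4. In endothelial wells Gata1 was found in library 2 alone and Prtn3 in library 4 alone (a gap share of 1 each), Nfe2 was lowest in library 2 (0.936), and Sox17 (0.880) and Erg (0.856) were highest in library 2. Among A1/A2 P wells, Gata2 had 86.7 CPM in library 3 and at most 8.87 CPM in the others (0.952).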

How the results depend on the processing

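With wells thinned to 5000 transcripts fewer genes could be tested and called: 1936 of 4308 against other EMP wells, 330 of 2114 against endothelial wells and 458 of 3270 against A1/A2 P wells. DESeq2 called 932 genes against endothelial wells, and the cause was not tested. With no filter on low counts that comparison had 1377 genes higher and 1106 lower, at a median of 0.15. Leaving out 1 library at a time gave 5447 to 5513, 1359 to 1919 and 2087 to 2438 calls in the 3 comparisons. Against endothelial wells the values that missed the threshold changed sign for Erg (0.0067 with totals-only scaling, 0.050 with no filter, -0.27 to 0.16 leaving out 1 library), Fli1 (-0.041 with a minimum ratio of 2, -0.0014 with none, -0.16 thinned) and F2r (0.047 with a minimum ratio of 2, 0.025 with no filter, -0.34 to 0.013 leaving out 1 library). Against A1/A2 P wells Mpo did so (0.080 without the deepest wells, -0.49 to 0.010 leaving out 1 library). The causes were not tested. Without thinning, shares of progenitor wells were higher: Adgrg1 96.9%, Kit 92.4%, Hba-x 85.7%, Itga2b 78.0%, Gata2 73.9%, Apob 70.1%, Prtn3 69.0%, Spi1 62.0%, Mpo 52.8%, Pf4 40.3%, Csf1r 40.1%, Ptprc 33.6% and Gata1 33.2%. The minimum ratio also sets the number of progenitor wells, 113 at a ratio of 2 and 176 with no minimum.

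Within EMP libraries, removing the replicate block gave 5401 calls against other and 1659 against endothelial wells. EMP and A1/A2 libraries share only a number: same-numbered libraries deviated together by 0.0292, 0.08, 0.0142 and 0.0983. Each was the highest correlation of its library except for EMP library 1, A1/A2 library 1 and A1/A2 library 3. The replicate block gave 2577 calls there.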
